A study of Mus musculus with 18 samples.

Results

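The interleukin-15 receptor alpha chain gene Il15ra, its ligand gene Il15 and 7 further receptor chain genes for interleukins (Il2rg, Il4ra, Il10ra, Il10rb, Il13ra1, Il21r and Il17ra) were followed in mouse macrophages exposed to dexamethasone, a synthetic glucocorticoid. A member was taken as any probe set whose annotation named that gene alone, and the brightest probe set on average stood for the gene. Of the 9 members, 8 were found, with 15 probe sets among 45141. All 8 passed the filter on dim genes, beside 13190 genes tested of 17020 named. Il2rg had no probe set naming it alone and was not analysed here.

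The cells were bone marrow derived macrophages of male C57BL/6 mice aged 10 weeks, grown out over 1 week in 10% fetal calf serum with recombinant human CSF1 at 10000 U/ml and replated in the same medium. The 6 groups of 3 arrays each were a baseline and cells given 100 nM dexamethasone for 1, 2, 4, 10 or 24 h, so that every group, the baseline included, carried serum and CSF1. Marrow came from 3 mice, and the labels call the 3 arrays of a group biological replicates without tying a number to a mouse. No vehicle-treated culture was labelled at the later times, so time in culture and time with dexamethasone cannot be told apart.

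The receptor for interleukin 15 is unusual in that its alpha chain, the product of Il15ra, binds the cytokine by itself with high affinity. Macrophages and dendritic cells carry interleukin 15 on this chain and present it to neighbouring lymphocytes, which bear the beta chain and the common gamma chain encoded by Il2rg. The common gamma chain also pairs with the interleukin 4 receptor alpha chain and the interleukin 21 receptor, while the interleukin 4 receptor alpha chain can pair with the chain encoded by Il13ra1 instead. The 2 chains of the interleukin 10 receptor and the interleukin 17 receptor A chain belong to other receptor families. Dexamethasone acts through the glucocorticoid receptor, a transcription factor that binds DNA once it holds its ligand.

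Since the results turn on Il15ra, the start of that gene is shown here. Il15ra lies at chr2:11705172-11733985 on the plus strand of GRCm38.p6. RefSeq's promoter table for that build gave it windows before 2 transcription starts, at 11705293 and 11705712. The first stretch printed, chr2:11705043-11705171, is the part of the upstream window that lies before the annotated gene. The second, chr2:11705670-11705699, is the part of the downstream window around its one motif match, set in capitals, whose first base lies 30 bases before that start. Both read 5′ to 3′ on the plus strand.
Il15ra upstream stretch: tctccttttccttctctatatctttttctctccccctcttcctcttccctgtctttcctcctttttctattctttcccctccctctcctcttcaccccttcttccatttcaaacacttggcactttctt
Il15ra around the AP-1 match: gggtggggatgcTGAGTCAcagatctgtca
Of the bases of the upstream stretch, 89.9% were C or T. The motifs searched on both strands in the 250 bases before each start were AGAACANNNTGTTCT, the palindrome of the glucocorticoid receptor; AGAACA, its single arm, which is contained in the palindrome; TTCNNNGAA, the site of STAT factors; and TGANTCA, the site of AP-1. Neither whole Il15ra window held the palindrome, the single arm or the STAT motif, and the downstream one held the AP-1 match. Over all 32851 windows of this length, 0.00913% held the palindrome, 16.1% the single arm, 7.02% the STAT motif and 6.75% the AP-1 motif. Of the 9 members, 5 had a window. Il2rg held the single arm once; the first base lay 129 bases before the start. The windows of Il4ra, Il13ra1 and Il21r held none of the 4 motifs. A match or its lack describes these letters only.

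The values were log2 RMA intensities, in which a difference of 1 is a change of 2-fold. Arrays of a group correlated at 0.995 to 0.997. Genes known to respond to glucocorticoids behaved as a check of the labels: Fkbp5, which encodes a co-chaperone of the glucocorticoid receptor, had a mean of 7.62 at baseline and 11.42 at 10 h, and Tsc22d3, which encodes the leucine zipper protein GILZ, went from 8.78 to 10.58 in 1 h. Dusp1 and Per1 rose at all 5 times, and Nr3c1, the receptor gene itself, fell by 0.27 at 4 h (limma adjusted p = 0.0492) and passed at no other time against baseline. All 9 macrophage markers named on the array were above the background level of 3.86 on every array. Of the natural killer cell markers 8 of 10 lay below it on every array, as did 4 of 8 T cell and 4 of 8 B cell markers. Above it on every array were 2 of 8 T cell, 2 of 8 B cell and 4 of 8 neutrophil markers. The groups compared share the baseline arrays, so the changes at the 5 times are not independent of each other. Centring each array on its median turned the split of all genes called from mostly higher to mostly lower, from 59.8% to 32.4% higher at 4 h, from 57.4% to 30.3% at 10 h and from 58.0% to 35.3% at 24 h. The median change of all genes moved by less than 0.1 under it.

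Il15ra stood higher at every time with dexamethasone than at baseline and highest at 2 h. The set was chosen by this course: Il15ra was selected on its log2 intensities in these same arrays and the other members by name as its ligand and fellow receptor chains, with their values known too. The values of Il15ra are therefore a description without a test. The 3 baseline arrays were at 4.05, 5.04 and 4.60, the arrays at 1 h at 5.29, 5.10 and 5.25, and those at 2 h at 6.84, 6.92 and 6.89. The baseline arrays were spread widely, with an SD of 0.50 around a mean of 4.56, while those at 2 h had a mean of 6.88 ± 0.044 (SD, n = 3). At 4 h the arrays were at 6.44, 6.81 and 6.90, at 10 h at 6.13, 6.14 and 6.44 and at 24 h at 6.16, 5.83 and 6.07. No array with dexamethasone fell into the range of the baseline arrays at any of the 5 times.

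Taken as changes in log2 intensity from baseline, Il15ra stood 0.65 higher at 1 h. The difference was 2.32 at 2 h, 2.16, or 4.45-fold, at 4 h, 1.67 at 10 h and 1.46, or 2.75-fold, at 24 h. The level at 24 h less that at 4 h was -0.70. Each of these differences had an SE of 0.18 in the fit over all arrays. That SE shares 1 spread over the 6 groups, while the baseline SD was 0.50 and the others ran from 0.044 to 0.25. For the differences from baseline it may therefore be too small. The baseline array of replicate 1 was the lowest of the 18, and without it the differences were 0.40, 2.07, 1.90, 1.42 and 1.20 at 1, 2, 4, 10 and 24 h. Only the difference at 1 h moved by more than 1.5 times. The 6 group means ranged over 2.32, where the median range of the 13190 genes was 0.26. A large range was fixed by the selection of Il15ra on these values and tests nothing.

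In order of mean level Il15ra ran from 2 h through 4 h, 10 h, 24 h and 1 h to baseline. Adjacent groups overlapped between 2 and 4 h, between 4 and 10 h, where the lowest array of the one and the highest of the other were both at 6.44, and between 10 and 24 h. The groups at 24 h and 1 h did not overlap, nor did those at 1 h and baseline.

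A second probe set for Il15ra, made to another transcript sequence, was dimmer. Its baseline arrays, at 3.79, 3.47 and 3.73, all lay below the background level, and 13 of its 18 arrays lay above it. Its means were 3.79 at 1 h, 4.78 at 2 h, 4.84 at 4 h, 4.49 at 10 h and 4.62 at 24 h. With the baseline arrays set at the background level it stood at least 1.90-fold higher at 2 h, at least 1.98-fold at 4 h, at least 1.55-fold at 10 h and at least 1.70-fold at 24 h. These are lower bounds and cannot be ranked against the brighter probe set. At 1 h, 1 of 3 arrays was above background, and no fold is given. Its arrays at 1 h overlapped those at baseline, and its highest mean fell at 4 h instead of 2 h.

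**Figure D1:**
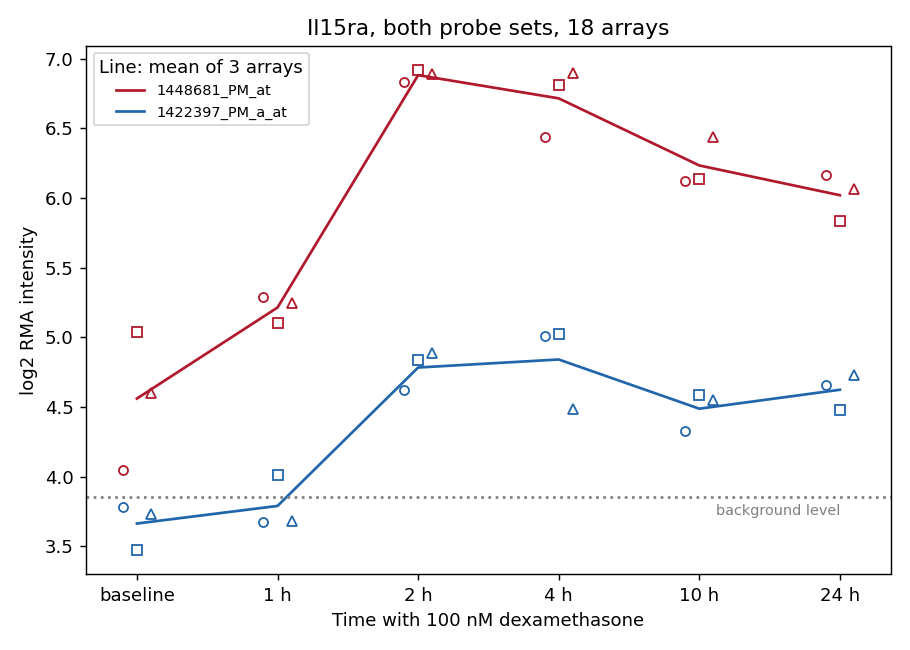
Log2 RMA intensity of the 2 Il15ra probe sets (y axis) on each of 18 arrays against time with 100 nM dexamethasone (x axis, categories not to scale). Circles, squares and triangles are replicates 1, 2 and 3, lines join the means of 3 arrays and the dotted line is the background level of 3.86. The brighter probe set goes from 4.56 at baseline to 6.88 at 2 h and 6.02 at 24 h, and the dimmer one starts below background.

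In RNA from whole cultures, more cells of a type and more RNA per cell cannot be told apart. Summed intensities of the marker lists, each over its named genes, moved little for macrophages, from 23460 to 24090 at baseline and from 24110 to 24510 at 2 h. The natural killer cell sum was 96.5 to 110 at baseline and 100 to 112 at 2 h, and the T cell sum 107 to 125 and 106 to 114. The neutrophil list, whose brightest gene S100a8 averaged 8.62, summed to 715 to 1171 at baseline, 905 to 957 at 2 h, 571 to 825 at 10 h and 583 to 710 at 24 h. S100a8 itself passed at 0 of the 5 times and differed from baseline by at most 0.18 in size. Of the list's 8 tested genes 3 passed as lower at 10 h and 3 at 24 h, beside 14.4% and 12.7% of all genes in either direction. S100a9, Ngp and Ltf differed by up to 1.18, 1.13 and 0.95 in size, while Elane and Mpo passed at no time. The mast cell and basophil list, led by Kit at 5.68, summed to 154 to 160 at baseline, 149 to 159 at 2 h and 105 to 106 at 10 h. Of its 9 genes 7 lay below background on every array. Of the 10 natural killer markers none was above background on every array. The B cell, dendritic cell and fibroblast sums at baseline and 2 h were 126 to 134 and 128 to 137, 56.3 to 60.3 and 55.1 to 55.2, and 84.8 to 89.5 and 79.8 to 87.1. The difference between 3′ and 5′ probe sets of a control gene widens as RNA is shortened. For Gapdh it was 0.056 log2 at baseline and 0.15 to 0.20 with dexamethasone. For Actb it was 0.38 at baseline and 0.40 to 0.43 with dexamethasone. The part of RNA length in the results was not tested. The part of the neutrophil and mast cell lists in the 10 h and 24 h results was not tested either.

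The 7 members other than Il15ra gave calls at 10 and 24 h only, set here beside the share of all genes. At 1 h 0 of 7 passed limma's adjusted threshold of 0.05, where 0.387% of all genes tested did, and 1 had an unadjusted p under it. At 2 h 0 of 7 passed, beside 2.15% of all genes, and at 4 h 0 of 7, beside 7.52%; no member had an unadjusted p under 0.05 at either time. At 10 h 2 of 7 passed, beside 14.4% of all genes: Il17ra was higher, as were 8.29% of all genes, and Il13ra1 lower, as were 6.16%. At 24 h 1 of 7 passed, beside 12.7%, and was higher, as were 7.38%. Between 24 h and 4 h 0 of 7 passed, beside 7.88%. There Il10ra and Il10rb had an unadjusted p under 0.05, and groups did not overlap for 3 of 7, beside 24.4% of all genes. With 7 genes, shares of this size cannot be set apart from the background. Groups did not overlap with baseline for 0, 1, 0, 2 and 2 of the 7 members at the 5 times in order, beside 9.8%, 13.1%, 22.4%, 25.6% and 27.9% of all genes. The median change of the 7 was 0.0092, -0.093, -0.0046, -0.0049 and -0.027 in the same order, and that of all genes at most 0.013.

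**Figure D2:**
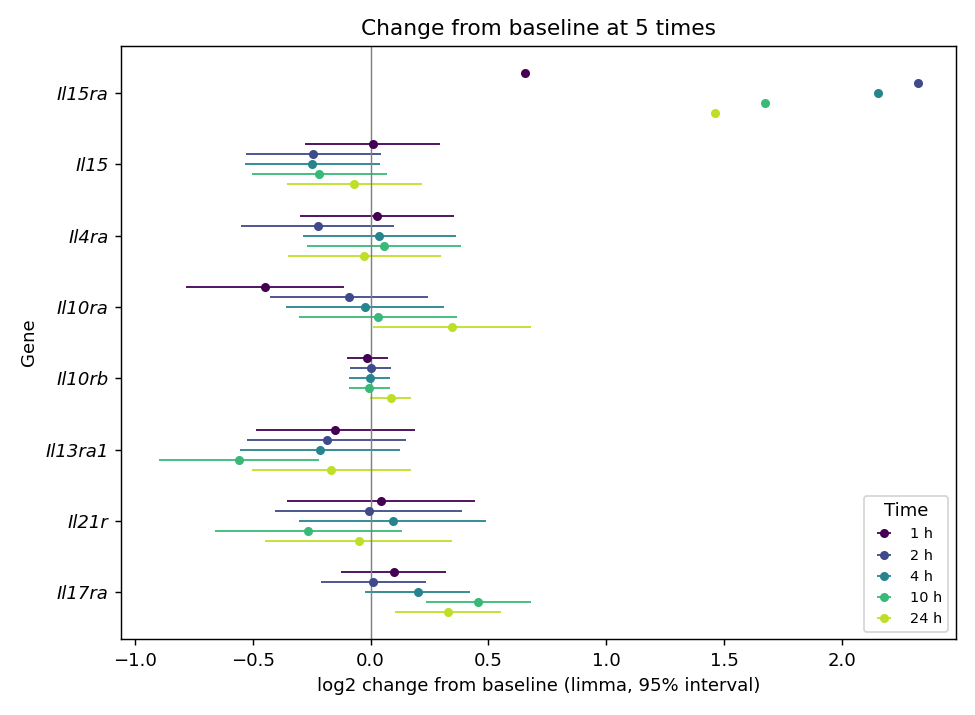
Change in log2 intensity from baseline (x axis) for the 8 measured members (y axis) at 1, 2, 4, 10 and 24 h, with 95% intervals from the limma fit on 18 arrays. Il15ra, selected on these values, is drawn without intervals. It runs from 0.65 to 2.32, and every other estimate lies between -0.56 and 0.46.

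Il15, the ligand of Il15ra, was well above background and passed no test. Its baseline arrays were at 7.68, 7.92 and 7.72, those at 2 h at 7.54, 7.64 and 7.41 and those at 4 h at 7.39, 7.80 and 7.39. All 3 arrays at 2 h lay below the lowest at baseline, while the groups overlapped at the other 4 times. Its difference from baseline was -0.24 ± 0.14 (SE) at 2 h, with a limma adjusted p of 0.642, and -0.25 at 4 h (adjusted p = 0.368). At 10 h it was -0.22 (adjusted p = 0.348) and at 24 h -0.070 (adjusted p = 0.821). The 95% interval at 4 h ran from -0.53 to 0.038. Across the 6 group means Il15 and Il15ra correlated at -0.915, over a range of only 0.26 in Il15, and the points share their arrays. This was the largest in size among the members other than Il15ra, where the rest ran from -0.50 to 0.32. It rests on the Il15ra values used for the selection and tests nothing.

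Of the common gamma chain's partners, Il4ra, which encodes the alpha chain bound by interleukin 4 and interleukin 13 complexes, and Il21r gave no call. Il4ra was at 4.66, 4.51 and 4.76 at baseline, and its group means differed from it by -0.22 at the lowest, at 2 h, and by 0.057 at the highest, at 10 h. The adjusted p-values over the 5 times ran from 0.751 at 2 h to 0.999 at 1 h, and its groups overlapped at each time. Il21r, at 4.86, 4.82 and 4.25 at baseline, was at 4.06, 4.44 and 4.64 at 10 h. That difference, -0.26 ± 0.19 (SE), had an adjusted p of 0.434, and the 2 groups overlapped. The 95% interval for Il21r at 10 h ran from -0.66 to 0.13. With 3 arrays a group, neither a small rise nor a fall of up to 0.66 was excluded.

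Il13ra1, whose product forms the type II interleukin 4 receptor with the interleukin 4 receptor alpha chain, fell at 10 h by its brightest probe set. The baseline arrays were at 5.25, 5.61 and 5.74 and the arrays at 10 h at 4.88, 5.13 and 4.91, so that all 3 treated arrays were below the lowest baseline array. The change was -0.56 ± 0.16 (SE), 0.68-fold, with a limma adjusted p of 0.0219. Of the 4 other probe sets of the gene, 1 was above background on 0 of 18 arrays and 1 on 13, with a baseline mean of 3.88, so these could hardly show a fall. The 2 that were above it on all 18 arrays differed from baseline at 10 h by 0.22 and 0.10, from means of 4.43 and 4.17. The mean over all 5 probe sets, the dim ones included, differed by -0.045 (adjusted p = 0.793), and a fit on these 2 groups alone gave an adjusted p of 0.054. Leaving out 1 array ended the call for baseline replicate 2 (adjusted p = 0.0738), baseline replicate 3 (0.119), 10 h replicate 1 (0.0744) and 10 h replicate 3 (0.0706). At 24 h the brightest probe set was at 5.46, 5.30 and 5.34, within its baseline range, and at -0.17 from baseline (adjusted p = 0.585). The 2 others above background on all 18 arrays differed there by 0.18 and 0.46, and the one above it on 13 by 0.36. For the differences of 0.46 and 0.36 all arrays at 24 h lay above those at baseline. The probe set above background on 0 arrays differed by -0.037. The mean over all 5 probe sets differed by 0.16 (limma adjusted p = 0.238).

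The chains of the interleukin 10 receptor gave no call at any time. Il10ra, which encodes the chain that binds the cytokine, was at 5.70, 5.73 and 5.87 at baseline and at 5.16, 5.02 and 5.77 at 1 h. The third array at 1 h lay inside the baseline range, and the difference of -0.45 ± 0.16 (SE) had an adjusted p of 0.763 against an unadjusted p of 0.011. At 24 h its arrays were at 6.08, 5.94 and 6.32, all above baseline, and the difference of 0.34 ± 0.16 (SE) had an adjusted p of 0.187. Il10rb, the accessory chain shared with other receptors of its family, was the steadiest member by its brightest probe set. Its arrays were at 11.12, 11.23 and 11.24 at baseline, and its intervals lay between -0.101 and 0.088 at 1, 2, 4 and 10 h. At 24 h the arrays were at 11.26, 11.31 and 11.27, all above baseline, with a difference of 0.084 ± 0.042 (SE) and an adjusted p of 0.216. The gene's other probe set was dimmer, with a baseline mean of 5.08, and above background on all 18 arrays. Its group means ranged over 0.30. It differed from baseline by 0.21 at 2 h and by 0.015 at 24 h, and the groups overlapped at both times.

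Il17ra, the chain shared by the receptors of several interleukin 17 cytokines, rose at 10 h. Its baseline arrays were at 7.12, 7.44 and 7.06 and its arrays at 10 h at 7.69, 7.52 and 7.77. All 3 arrays at 10 h were above the highest at baseline, and the change of 0.46 ± 0.11 (SE), 1.37-fold, had a limma adjusted p of 0.00436. At 24 h the arrays were at 7.72, 7.44 and 7.44, of which replicates 2 and 3 lay level with the highest baseline array, and the groups overlapped. The change there was 0.33 ± 0.11 (SE), with an adjusted p of 0.0464.

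The call of Il17ra at 10 h held without any single array, with adjusted p from 0.000713 to 0.0354. It was lost with the gene's other probe set, which differed by 0.34 (adjusted p = 0.365), and with the mean of both, 0.40 (adjusted p = 0.0781). The call at 24 h was kept in 7 of the 18 fits that left out 1 array. It was lost without baseline replicate 1 (adjusted p = 0.138) or 3 (0.201), without 1 h replicate 1 (0.0518) or 3 (0.0514) and without 2 h replicate 3 (0.054). It was lost as well without 4 h replicate 1 (0.0558), 2 (0.0537) or 3 (0.0536), and without 24 h replicate 1 (0.239), 2 (0.0503) or 3 (0.0542). Centring the arrays gave 0.26 at 24 h (adjusted p = 0.142), and quantile normalization of the log2 values again gave 0.24 (adjusted p = 0.158). The other probe set differed at 24 h by 0.45 (limma adjusted p = 0.212), and all its arrays there lay above those at baseline. The mean of both gave 0.39 at 24 h (adjusted p = 0.0947).

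**Figure D3:**
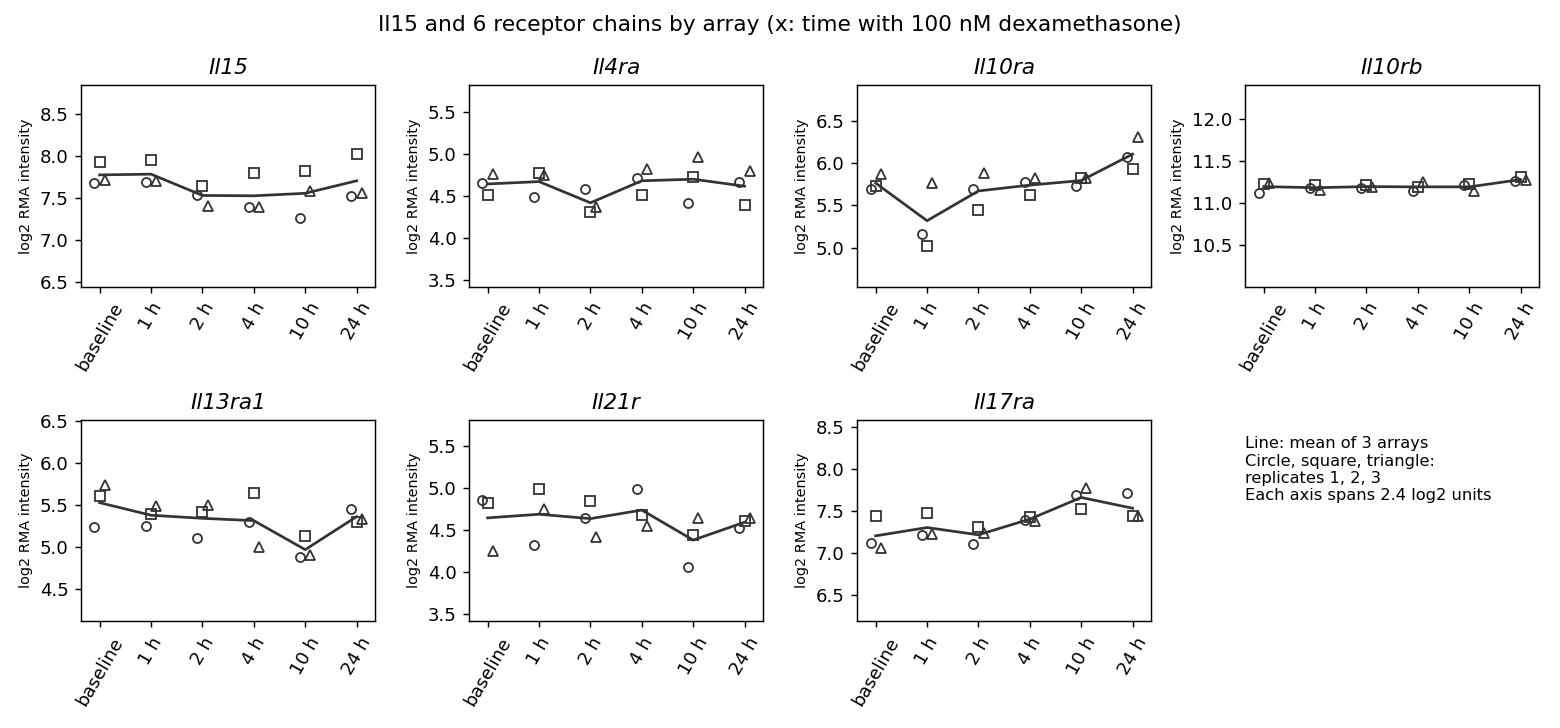
Log2 RMA intensity (y axes, each spanning 2.4 units) of Il15, Il4ra, Il10ra, Il10rb, Il13ra1, Il21r and Il17ra on each array against time with 100 nM dexamethasone (x axes, categories not to scale). Symbols are replicates 1, 2 and 3 and lines join the means of 3 arrays. Il17ra goes from 7.20 at baseline to 7.66 at 10 h, Il13ra1 from 5.53 to 4.97, and Il10rb stays between 11.18 and 11.28.

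Other interleukin receptor chains, a list of 33 genes with 22 tested, held 0 limma calls at 1 and 2 h, beside 0.387% and 2.15% of all genes, with 0 and 2 genes at an unadjusted p under 0.05. At 4 h 2 of 22 passed, both higher, beside 7.52% of all genes. At 10 h 4 were higher and 1 lower, so 5 of 22 passed beside 14.4%, and at 24 h 3 were higher and 2 lower, 5 of 22 beside 12.7%. Il18rap, the accessory chain of the interleukin 18 receptor, rose by 1.12 ± 0.16 (SE) at 4 h (adjusted p = 1.98e-05) and by 1.24 at 10 h (adjusted p = 2.98e-06). Its baseline arrays were at 4.88, 4.61 and 4.49 and its arrays at 10 h at 6.08, 5.61 and 6.02, with no overlap. Il6ra, which binds interleukin 6, rose by 0.70 at both times and by 0.63 at 24 h (adjusted p = 0.000126). Il1rap, the accessory chain of the interleukin 1 receptor, rose by 0.57 at 10 h (adjusted p = 0.00718), and Il1rl2, which binds interleukin 36, also passed there (adjusted p = 0.0282). Of its baseline arrays 1 of 3 was above background, and with the others set at that level it stood at least 1.19-fold higher. The remaining calls, named after their values were seen, were Il12rb1 and the near-identical chains Csf2rb and Csf2rb2, whose probes can pick up each other's transcripts. Il12rb1 passed as higher at 24 h (adjusted p = 0.0264), but with 0 of 3 baseline arrays and 2 of 3 arrays at 24 h above background, which bounds it at only 1.03-fold or more. Csf2rb2 was lower by 0.29 at 10 h and by 0.34 at 24 h, and Csf2rb by 0.27 at 24 h. The median change of the 22 genes was at most 0.087 over the 5 times. Some of the 22 could hardly show a change. Il2ra, Il2rb, Il12rb2, Il17rb and Il17rc were above background on 0 of 18 arrays and Il17rd on 1. Il31ra was above it on 3, and Il1r1 and Il13ra2 on 4.

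Of the 5 interferon receptor chains, Ifngr1, which binds interferon gamma, was the one that passed. That is 1 of 5 at 4, 10 and 24 h, beside 7.52%, 14.4% and 12.7% of all genes. It rose by 0.32 at 4 h, by 0.60 ± 0.06 (SE) at 10 h (adjusted p = 1.92e-08) and by 0.50 at 24 h, and its arrays at 10 h, 9.65, 9.63 and 9.70, lay above all baseline arrays, at 8.96, 9.16 and 9.06. The other 4 passed no test at any time, and their unadjusted p was under 0.05 for at most 1 of them at a time. Among them Ifngr2 differed from baseline by up to 0.52 in size, with a baseline SD of 0.68. Ifnlr1 was above background on 4 of 18 arrays.

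The kinases and STAT factors that carry the signal of these receptors gave 2 calls of 10 tested genes at 10 h, beside 14.4% of all genes, a share near that background. At the other times there were 0, where 2, 0, 0 and 1 had an unadjusted p under 0.05 at 1, 2, 4 and 24 h. Jak2, a kinase bound to many cytokine receptors, rose by 0.33 ± 0.09 (SE; adjusted p = 0.0127). Stat3, the factor that the interleukin 10 receptor and the interleukin 6 receptor activate, rose by 0.26 ± 0.08 (SE; adjusted p = 0.0218).

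Among 8 genes that act below the interleukin 17 receptor, Traf3ip2, the adaptor Act1 that binds Il17ra's product, rose at 10 h by 0.66 ± 0.18 (SE; adjusted p = 0.0112). Nfkbiz, an inducible nuclear regulator of NF-kappa B targets, fell by 0.51 at 4 h (adjusted p = 0.0441) and rose by 0.59 at 10 h (adjusted p = 0.0112) and by 0.64 at 24 h (adjusted p = 0.00632). The other 6 passed no test at any time, so that 1, 2 and 1 of 8 passed at 4, 10 and 24 h, beside 7.52%, 14.4% and 12.7% of all genes. The list's median change lay between -0.020 and 0.083.

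The ligands of the receptors, apart from Il15, were at the limit of detection. Of 18 listed genes 14 were named and 9 tested, and 0 passed at any time, with 1 at an unadjusted p under 0.05 at each of the 5 times. The brightest, Il17b, averaged 3.81 at baseline, below the background level. Il10 averaged 3.66 there and Il13 3.59, so no change in these 3 could be read from the arrays.

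Genes known to respond to interleukin 4 and interleukin 13 included 1, 1, 4, 5 and 4 that rose at 1, 2, 4, 10 and 24 h, of 13 tested, and 1 that fell, at 10 h. Of all genes 0.387%, 2.15%, 7.52%, 14.4% and 12.7% passed in either direction at these times, and 8.29% were called higher at 10 h. Klf4, a transcription factor, rose by 1.08 at 1 h and by 1.97 ± 0.09 (SE) at 2 h (adjusted p = 9.48e-14). Chil3, a chitinase-like protein of macrophages, rose by 2.06 at 24 h (adjusted p = 2.73e-09), Clec10a, a lectin, by 1.40 at 10 h and Mrc1, the mannose receptor, by 0.62 at 24 h. The gene that fell was Tfrc, the transferrin receptor, by 0.44 at 10 h, named after its values were seen. The median change of the list was 0.18 at 10 h. Arg1, Retnla, Ccl22, Cdh1 and Alox15, also listed, did not pass the filter on dim genes and were not tested. Among the tested genes Ccl17, Ccl24, Socs1 and Pdcd1lg2 were above background on 0 arrays. Fn1 was above it on 1, Irf4 on 2 and Mgl2 on 3. These dim genes could hardly show a change.

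Genes known to respond to interleukin 10 included 2, 2, 4, 4 and 4 that rose and 0, 0, 1, 1 and 3 that fell at the 5 times, of 11 tested, with the member Il4ra counted among the 11. They stand beside the same shares of all genes, 0.387%, 2.15%, 7.52%, 14.4% and 12.7% in either direction. Ddit4, an inhibitor of mTOR signalling and a known target of glucocorticoids, rose by 2.30 at 1 h and 3.98 ± 0.19 (SE) at 4 h (adjusted p = 6.98e-14). Cd163, the haemoglobin scavenger receptor, rose by 2.55 at 24 h and Nfil3, a transcription factor, by 1.58 at 4 h. Il1rn, the interleukin 1 receptor antagonist, fell by 2.08 at 24 h (adjusted p = 1.1e-09). Both response lists hold genes that glucocorticoids are also known to regulate, and their counts say nothing of which receptor acted.

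Neither neighbour of Il15ra on chromosome 2 passed a test at 1 or 2 h. Il2ra, the interleukin 2 receptor alpha chain gene and the structural relative of Il15ra, averaged 3.38 at baseline and lay below background on all arrays, so no change in it could be read. Fbh1, which encodes a DNA helicase, had baseline arrays at 7.53, 7.45 and 7.48. It was at -0.0034 from baseline at 1 h and at 0.14 at 2 h (adjusted p = 0.696), when Il15ra stood 2.32 above baseline. It rose by 0.64 ± 0.09 (SE) at 4 h (adjusted p = 1.07e-05), with arrays at 8.05, 8.27 and 8.06, by 0.44 at 10 h and by 0.35 at 24 h. The difference between the genes' courses was not tested. Il4ra and Il21r lie side by side on chromosome 7, and Il10rb lies between Ifnar2 and Ifnar1 on chromosome 16, and none of these 5 genes passed a test at any time.

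The 6 genes whose group means followed Il15ra most closely were taken from 233 genes with a range of at least 1 log2 unit, by Pearson correlation over the 6 conditions. They were Rnf169 (0.993), Sgms1 (0.981), Wee1 (0.979), Trp53inp1 (0.970), Tigd2 (0.964) and Chka (0.962). The values describe 6 points that come from the same arrays. Rnf169, which encodes a ubiquitin ligase of the DNA damage response, had means of 6.79, 7.25, 8.62, 8.65, 8.32 and 8.07 from baseline to 24 h. Its mean at 2 h was 1.83 above baseline and at 24 h 1.28 above. All 6 had their highest mean at 4 h, where that of Il15ra was at 2 h. Wee1, a kinase that restrains entry into mitosis, stood 1.15 above baseline at 2 h and 1.25 at 4 h. Over the 18 arrays the correlations of the 6 with Il15ra ran from 0.918 to 0.96. High values there follow from the selection on these same arrays and test nothing.

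**Figure D4:**
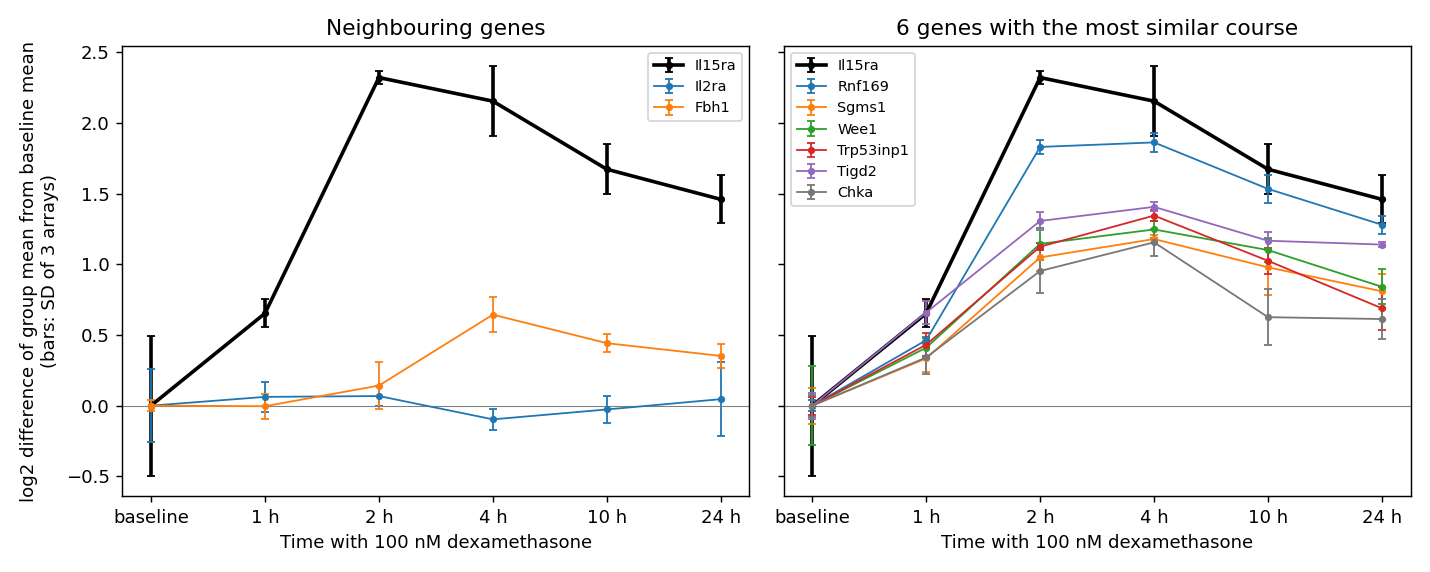
Difference of the group mean from the baseline mean in log2 intensity (y axis, bars are the SD of 3 arrays) against time with 100 nM dexamethasone (x axis, categories not to scale), for Il15ra with its neighbours Il2ra and Fbh1 (left) and with the 6 genes of most similar course (right). Il15ra reaches 2.32 at 2 h, Fbh1 0.64 at 4 h and Rnf169 1.86 at 4 h.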

How the data were processed

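Affymetrix arrays of 18 samples were analysed from the authors' deposited value table. Its values are linear RMA intensities, made with affy per the submitters' processing notes, versions not given in the sources used here, between 5.37 and 15220; log2 was taken. Probe sets were named from GEO's platform annotation: 28898 had 1 symbol, and 16139 with several or none and 104 controls were left out, as were 211 probe sets whose values in baseline replicate 1 form an evenly stepped run. None was a member's. No array pair was identical.

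The brightest probe set per gene was kept, with genes reaching the array's 40th percentile on at least 3 arrays. limma 3.58.1 in R 4.3.3 fitted 1 mean per group (eBayes with trend), two-sided, Benjamini-Hochberg over all genes within a comparison, threshold 0.05; it was tested on simulated data. Where nothing ties arrays to mice, p-values measure the spread between these samples. The background level is the 95th percentile of 43 control probe sets. Members and lists were chosen with earlier results of these data known. Genes named: members, up to 4 called genes of each list by size (the brightest where none was called), the glucocorticoid check genes, the nearest genes and the 6 most correlated. Alternatives covered probe set choice, filter, trend, groups in the fit, scaling, stepped values, adjustment, replicate block and leaving out each array.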

Additional observations from a re-analysis of the deposited data

How the results depend on the processing

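The number of genes called stayed within 1.5 times its main value outside the settings given here. A replicate block moved it from 51 to 93 at 1 h and from 283 to 432 at 2 h, adjusting over the comparisons together gave 106 at 1 h. A fit restricted to the groups in question called 1257 at 10 h, where the full one called 1905. The replicate block changed no member's call. The labels do not say what a number marks; of 45 same-number pairs 35 had deviations correlated over 0.1 (lowest 0.0236), and every one of the 18 arrays correlated best with its own number, a hint from the data and not the design. Leaving out 1 array gave 667 to 1127 genes for 24 h against 4 h (1040 with all), with 667 lacking 24 h replicate 1 and 687 lacking 4 h replicate 2.

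The members called at 10 h, 2, became 1 with the probe set of largest variance, 0 with the mean of all probe sets and 1 with only the groups compared; leaving out 1 array gave 1 to 2. At 24 h the 1 member called, Il17ra, became 0 under 9 settings: both other probe set rules, no filter (adjusted p = 0.0515), no trend (0.0705), only the groups compared (0.0966), stepped values kept (0.053), centred, quantile normalized again and the joint adjustment (0.0722); leaving out 1 array gave 0 to 1. The cause was not tested.

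For Il15ra, all settings and all arrays left out kept the direction. The mean of both probe sets, one of them below background at baseline, gave 0.39, 1.72, 1.67 and 1.25 at 1, 2, 4 and 10 h.

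Sign changes were seen only for differences not called in either setting, of at most 0.21 in size. Centring gave Il15 -0.021 and Il4ra -0.0026 at 1 h, Il10rb -0.042 and Il17ra -0.031 at 2 h, Il4ra -0.041 at 4 h, and Il4ra -0.028 and Il10ra -0.054 at 10 h. Quantile normalization gave Il17ra -0.053 at 2 h, Il4ra -0.013 and Il10rb 0.011 at 4 h, Il4ra -0.015, Il10ra -0.094 and Il10rb 0.014 at 10 h, and Il13ra1 -0.0024 for 24 h against 4 h. Another probe set choice gave Il17ra -0.070 (largest variance) and -0.029 (mean) at 2 h, and Il13ra1 0.095, 0.052 and 0.16 at 2, 4 and 24 h (mean). Leaving out 1 array gave ranges through 0 at 1 h for Il15 (-0.073 to 0.084), Il4ra (-0.039 to 0.12), Il10rb (-0.051 to 0.0083) and Il21r (-0.15 to 0.22). At 2 h they were Il10ra (-0.20 to 0.021), Il10rb (-0.036 to 0.023), Il21r (-0.20 to 0.10) and Il17ra (-0.061 to 0.13). At 4 h they were Il4ra (-0.031 to 0.12), Il10ra (-0.066 to 0.035), Il10rb (-0.042 to 0.023) and Il21r (-0.10 to 0.20), and at 10 h Il4ra (-0.073 to 0.20), Il10ra (-0.0041 to 0.084) and Il10rb (-0.042 to 0.021). At 24 h they were Il15 (-0.23 to 0.020), Il4ra (-0.11 to 0.088) and Il21r (-0.25 to 0.057), and for 24 h against 4 h Il4ra (-0.15 to 0.050) and Il13ra1 (-0.11 to 0.21).

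The number of arrays limits precision, and probe sets near background understate a change.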
